A study of Mus musculus with 24 samples.

Results

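A set of 43 genes that encode ligands, receptors and other components of the bone morphogenetic protein (BMP) and transforming growth factor β (TGF-β) pathways was followed in cultured primary osteoblasts (OBs). The members are the 43 gene symbols of a fixed list, and all 43 were present among the 55335 genes with counts. They comprise 10 ligands of the BMP group, 4 ligands of the TGF-β and activin group, 4 latent TGF-β binding proteins, 7 receptors for BMPs and activins, 3 TGF-β receptors, 6 receptor-activated or common SMADs, 2 inhibitory SMADs, 3 Id targets and 4 antagonists. All 43 had enough counts to be tested, although the mean count was below 50 for *Bmp6*, *Gdf6* and *Bmpr1b*.

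The libraries were made from OBs of parietal bones of pups less than a week old. WT cells came from C57BL/6J pups, and Het cells came from pups of that background with 1 copy of the G610C allele of *Col1a2*, which replaces a glycine by cysteine in the triple helix of the procollagen α2(I) chain. For each genotype, cells of several pups were pooled and cultured under osteogenic conditions with an ascorbic acid derivative. RNA came from days 8, 14 and 21 of culture, and each combination of genotype and day had 4 libraries, which makes 24. The paper's methods describe fewer wells per genotype and day than the 4 labelled replicates, and the origin of the additional library is not given in the sources used here. Since wells of a preparation were seeded from the same pooled pups, p-values below measure the spread between wells more than the spread between animals. G610C is a point mutation, and gene counts of *Col1a2* cannot check the genotype labels.

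In this pathway, BMPs, TGF-βs and activins bind complexes of type I and type II receptor kinases, which phosphorylate receptor-activated SMADs that enter the nucleus with SMAD4. BMP receptors act mainly through SMAD1, SMAD5 and SMAD9, while TGF-β and activin receptors act mainly through SMAD2 and SMAD3. BMPs were named for their ability to induce bone, and TGF-β is stored in large amounts in the bone matrix as a latent complex. Noggin, chordin, gremlin 1 and follistatin bind ligands outside the cell and block them, while SMAD6 and SMAD7 restrain signalling inside the cell. The Id genes, which encode inhibitors of basic helix-loop-helix transcription factors, are standard readouts of BMP signalling.

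Expression is given below as a relative quantity (RQ), the ratio of a gene's count to a housekeeping count, which is the geometric mean over *Actg1*, *Mrfap1*, *Actb* and *Sdha* of that library. All RQs printed here are multiplied by 1000, as on the figure axes (RQ × 1000), and so are counts per 1000 housekeeping counts. Per kb of exon, the most abundant members in WT cultures at days 14 and 21 were the BMP target *Id3*, at an RQ of 257 ± 23.8 per kb (SD, n = 8), and *Gdf10* (also named Bmp3b), at 244 ± 40.8 per kb. These levels lay within 1 SD of each other. The next levels were 99.5 ± 34.1 per kb for *Ltbp2*, 92.3 ± 4.28 for *Id1* and 86.3 ± 8.71 for *Tgfb3*, which also overlapped within their SDs. Among receptors for BMPs and activins, *Bmpr1a* came first (48.4 ± 3.61 per kb), ahead of *Acvr1* (16.5 ± 0.598 per kb) and the type II receptor *Bmpr2* (8.60 ± 0.852 per kb). The alternative type I receptor *Bmpr1b* was at the bottom of the order, at 0.0826 ± 0.0648 per kb, next to *Gdf6* at 0.0872 ± 0.0608 per kb.

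Among the BMPs, the order in these WT cultures after *Gdf10* was *Bmp4* (47.2 ± 8.50 per kb), *Bmp8a* (27.0 ± 7.96), *Bmp3* (22.7 ± 5.35) and *Bmp2* (10.7 ± 3.46). The SDs of *Bmp8a* and *Bmp3* overlapped over both days together, but they include the change between the days. In WT, the mean RQ of *Bmp8a* (not per kb) was 48.8 at day 14 and 81.1 at day 21, and that of *Bmp3* was 183 and 152. By these means, *Bmp8a* per kb was below *Bmp3* at day 14 and above it at day 21. *Gdf5* (3.70 ± 0.809 per kb) did not differ from *Acvr2a* (3.73 ± 0.314 per kb) beyond their SDs. *Bmp7* (2.72 ± 1.07), *Bmp5*, *Bmp6* and *Gdf6* had lower means, and that of *Bmp7* also overlapped *Acvr2a* within the SDs. At day 8 the order was different for several ligands, with *Bmp8a* at 1.40 per kb, *Bmp2* at 1.70 per kb and *Bmp3* at 4.04 per kb, beside *Bmp7* at 8.99 ± 7.57 per kb, a mean that rests largely on replicate 1. Among the SMADs, the TGF-β mediator *Smad3* (33.1 ± 2.21 per kb) and the common *Smad4* (31.3 ± 1.45 per kb) were close to each other and above *Smad5* (24.7 ± 0.974), *Smad6* (22.3 ± 3.50), *Smad1* (11.6 ± 0.879) and *Smad2* (10.3 ± 0.408).

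**Figure D1:**
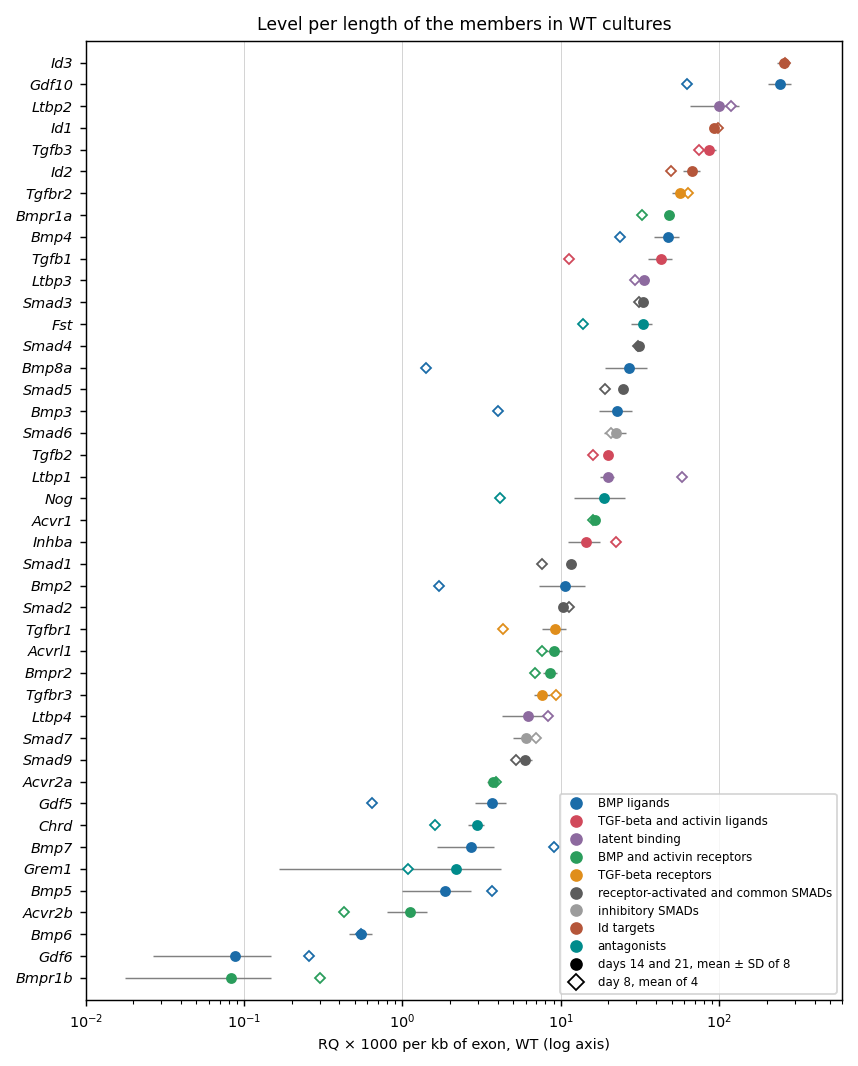
RQ × 1000 per kb of exon in WT cultures for the 43 members (log axis), as the mean ± SD of 8 libraries of days 14 and 21 (filled circles) and the mean of 4 libraries of day 8 (open diamonds), coloured by role. *Id3* (257) and *Gdf10* (244) were at the top and *Gdf6* and *Bmpr1b* at the bottom, and the distance between diamond and circle was widest for *Bmp8a*.

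Promoters were available for 29 of the 43 members (37 start sites) in RefSeq sequences of mouse build GRCm38.p6, and the 250 bases before each start were searched on both strands for motifs of factors of this pathway. The GC-rich SMAD motif GGCGCC was found at 10 of these 37 starts (27.0%) in 9 genes, *Bmpr1a*, *Bmpr2*, *Chrd*, *Grem1*, *Id2*, *Ltbp4*, *Smad5*, *Smad9* and *Tgfbr1*, and at 9.59% of 32851 mouse promoters of the same length. The SMAD palindrome GTCTAGAC was found at 0 of the 37 starts and at 0.167% of all promoters. The RUNX motif TGTGGT was found at 1 of the 37 starts (2.7%), in *Ltbp1*, and at 14.0% of all promoters. GGCGCC and GTCTAGAC read the same on both strands, and no motif is part of another. No promoter entry was matched for *Acvrl1*, *Bmp2*, *Bmp3*, *Bmp7*, *Fst*, *Gdf5*, *Gdf6*, *Id1*, *Nog*, *Smad2*, *Smad4*, *Smad7*, *Tgfb3* and *Tgfbr3*. The 3 promoters printed are those of the BMP receptor genes *Bmpr1a* and *Bmpr2*, which were both lower in Het cultures and both hold GGCGCC (capitals), and that of *Bmp8a*, the member that changed most with culture day and holds none of the 3 motifs. They lie at chr14:34502547-34502796 (minus strand), chr1:59764029-59764278 (plus strand) and chr4:123343253-123343502 (minus strand). Each runs 5′ to 3′ up to the base before the RefSeq start. The GENCODE gene positions used below begin further upstream for *Bmpr1a* (chr14:34410734-34503341) and *Bmpr2* (chr1:59763400-59879014). By those positions, these printed stretches lie inside the gene, while that of *Bmp8a* ends at the base before it. A match is a run of letters and was not tested for binding. The searched promoters of *Tgfb1*, *Tgfb2* and *Acvr2b*, which were also lower in Het cultures, hold no GGCGCC. The other genes with this motif, *Chrd*, *Grem1*, *Id2*, *Ltbp4*, *Smad5*, *Smad9* and *Tgfbr1*, did not pass the main test between genotypes described below. A link between the motif and the genotype was not tested.
Bmpr1a: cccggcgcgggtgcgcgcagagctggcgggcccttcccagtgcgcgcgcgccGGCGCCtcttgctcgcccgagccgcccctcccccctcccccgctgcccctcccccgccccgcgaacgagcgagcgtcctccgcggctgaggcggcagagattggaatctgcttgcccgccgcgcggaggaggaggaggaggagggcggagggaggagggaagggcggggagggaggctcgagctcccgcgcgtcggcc
Bmpr2: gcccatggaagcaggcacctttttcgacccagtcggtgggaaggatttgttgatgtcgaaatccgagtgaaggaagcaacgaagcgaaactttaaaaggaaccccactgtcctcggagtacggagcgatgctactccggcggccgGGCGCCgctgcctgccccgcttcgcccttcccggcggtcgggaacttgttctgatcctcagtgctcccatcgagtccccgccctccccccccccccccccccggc
Bmp8a: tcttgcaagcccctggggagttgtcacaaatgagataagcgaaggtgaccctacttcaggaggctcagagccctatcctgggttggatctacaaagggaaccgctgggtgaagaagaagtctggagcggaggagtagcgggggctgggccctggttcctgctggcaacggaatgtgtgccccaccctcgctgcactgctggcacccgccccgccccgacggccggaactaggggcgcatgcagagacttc

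Totals ranged from 17140202 to 25825762 counts in the 6 libraries of replicate 1 and from 28159342 to 59734231 in the 18 libraries of replicates 2 to 4. The study made a pair of experiments with different litters, plating densities and oxygen levels, and the labels do not say which replicate belongs to which, so a batch of replicate 1 and its depth cannot be told apart. Ratios for replicate 1 alone and for the other replicates alone therefore stand beside the members called between genotypes. The summed RQ of the OB markers *Col1a1*, *Runx2*, *Sp7*, *Alpl*, *Ibsp* and *Bglap* was between 17425 and 186068. *Col1a1* made up most of this sum in every library, while *Bglap* was between 0.405 and 3.63 at day 8. Cartilage markers (*Acan*, *Col2a1*, *Sox9* and *Col10a1*) were also present in every library, at summed RQs of 1113 to 32523. In replicate 1 at day 8, the cartilage sum was above the OB sum in WT (32523 against 17425) and in Het (31688 against 18431). Macrophage and osteoclast markers (*Cd68*, *Adgre1*, *Csf1r*, *Ctsk* and *Acp5*) summed to between 409 and 2956, whereas endothelial markers summed to at most 2.56 and adipocyte markers to at most 3.17. In such bulk samples, fewer cells of a type and less RNA per cell cannot be told apart.

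The first question was how the pathway changed as the cultures matured from day 8, at about confluence, to the matrix-producing stage of days 14 and 21. The BMP ligands *Bmp8a*, *Bmp3*, *Bmp2* and *Gdf10* rose together with the antagonists *Nog*, *Fst* and *Chrd* and with *Tgfb1*, while *Bmp7*, *Bmp5* and *Ltbp1* fell. Over both genotypes, 29 of 43 members differed between days 14 and 21 and day 8 at an adjusted p under 0.05 (edgeR), 21 higher and 8 lower. Of all 20434 genes tested, 58.3% differed, with 40.9% higher and 17.4% lower, beside 67.4%, 48.8% and 18.6% of the members. The median log2 fold change of the members was 0.15, against 0.16 for all genes. With total counts in place of housekeeping genes as the scale, the split was 15 higher and 16 lower (4376 and 8793 of all genes). The median over all genes moved from 0.16 to −0.14. With TMM the split was 19 higher and 13 lower (6377 and 5724 of all genes), and with DESeq2 size factors 18 higher and 13 lower (6151 and 6037).

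*Bmp8a* (chr4:123312645-123343252, minus strand), a BMP ligand of the BMP5 to BMP8 subgroup, ranged from 1.05 to 4.56 over the 8 libraries of day 8 (median 1.57) and from 32.1 to 92.5 over the 16 libraries of days 14 and 21 (median 58.0). Its lowest value at the later days was above its highest at day 8, and it rose 29.4-fold (log2 fold change 4.88 ± 0.15, adjusted p = 1.28e-15; in all that follows, fitted log2 fold changes are given ± SE and RQs ± SD). Positions here are those of the whole gene in GRCm38. *Bmp8a* and its neighbour *Bmp8b* are close copies of each other, and the treatment of reads that match both is not given in the sources used here. *Bmp8b* rose 2.10-fold (1.07 ± 0.076, adjusted p = 1.00e-10).

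*Bmp3* (chr5:98854415-98884396, plus strand), a BMP that opposes osteogenic BMPs, ranged from 5.98 to 41.4 over the 8 libraries of day 8 (median 13.1) and from 94.9 to 309 over the 16 libraries of days 14 and 21 (median 200.2). The time groups did not overlap, and *Bmp3* rose 10.6-fold (3.41 ± 0.28, adjusted p = 7.65e-10). Its spread at day 8 was wide, with 7.37, 40.8, 41.4 and 29.9 in WT replicates 1 to 4 and 5.98, 13.7, 12.5 and 10.5 in Het replicates 1 to 4. *Bmp2*, a strong inducer of bone formation, ranged from 2.74 to 7.63 over the 8 libraries of day 8 (median 5.76) and from 15.3 to 50.6 over the 16 libraries of days 14 and 21 (median 41.6). It did not overlap between the time groups either and rose 6.77-fold (2.76 ± 0.18, adjusted p = 3.64e-11).

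*Gdf5* (chr2:155941023-155945367, minus strand), a ligand of joint and skeletal development, ranged from 0.993 to 2.56 over the 8 libraries of day 8 (median 1.35) and from 4.20 to 10.2 over the 16 libraries of days 14 and 21 (median 8.62). Without overlap, it rose 5.41-fold (2.44 ± 0.18, adjusted p = 1.90e-10), and 936 of its 2320 exon bases are shared with an opposite-strand gene, *Gm15557*, whose reads cannot be told apart from it without strand. *Gdf10*, which is related to *Bmp3*, ranged from 119 to 441 over the 8 libraries of day 8 (median 346) and from 414 to 1537 over the 16 libraries of days 14 and 21 (median 1072). Its groups overlapped by the lowest Het library of day 21, at 414, and it rose 3.44-fold (1.78 ± 0.24, adjusted p = 1.32e-06). In replicate 1 alone the log2 ratio of *Gdf10* was 3.06, and it was 1.55 in replicates 2 to 4.

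*Bmp7* (chr2:172868012-172940321, minus strand), another ligand that can induce bone, moved the other way and ranged from 11.4 to 79.9 over the 8 libraries of day 8 (median 25.4) and from 1.66 to 18.7 over the 16 libraries of days 14 and 21 (median 7.56). In pairs of same-numbered libraries over time, each day 8 library was set against both later days, so the 16 pairs are not independent. *Bmp7* fell in all 16, to 0.22 of its day 8 level (−2.18 ± 0.40, adjusted p = 7.46e-05). Its level depended on the replicate, with 79.9 and 69.2 in WT and Het replicate 1 at day 8 against 11.4 to 34.4 in the other libraries of that day. *Bmp5* (−1.34 ± 0.33, adjusted p = 0.00167) also fell in 16 of 16 pairs, although 1878 of its 4025 exon bases are shared with an opposite-strand gene, *Gm26903*. *Gdf6* (−1.09 ± 0.44, adjusted p = 0.036) passed with low counts, at a log2 ratio of −2.90 in replicate 1 and −0.47 in replicates 2 to 4, and its call was lost without replicate 1 (−0.65, adjusted p = 0.135). *Bmp4* rose by 0.90 ± 0.21 on the log2 scale (adjusted p = 0.00109), and *Bmp6* did not pass the test (0.082 ± 0.13, adjusted p = 0.731).

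Of the cartilage markers, 3 of 4 fell over the same days as *Bmp7* and *Bmp5* (log2 fold changes of *Col2a1* −1.82 ± 0.48, *Acan* −1.23 ± 0.39, *Sox9* −1.26 ± 0.18). *Col10a1* was at 0.78 ± 0.52 and did not pass (edgeR, adjusted p = 0.211), with log2 ratios of 1.72 in replicate 1 and 0.37 in replicates 2 to 4. The summed RQ of all 4 was 5281 to 32523 at day 8 and 1113 to 21144 later. All 6 OB markers and all 4 osteocyte markers rose, and 4 of 5 macrophage and osteoclast markers rose (median log2 fold change 2.92). The part of these cell types in the changes of the members was not tested.

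Of the TGF-β ligands, *Tgfb1* ranged from 40.0 to 63.8 over the 8 libraries of day 8 (median 44.8) and from 135 to 268 over the 16 libraries of days 14 and 21 (median 194). It rose 4.02-fold without overlap (2.01 ± 0.085, adjusted p = 6.10e-14), and by similar amounts in replicate 1 (2.18) and in replicates 2 to 4 (1.96). *Tgfb2* and *Tgfb3* rose less, by 0.33 ± 0.083 and 0.20 ± 0.073 on the log2 scale (adjusted p = 0.00196 and 0.0211), and with total counts as the scale *Tgfb3* was at −0.10. *Inhba*, which encodes the subunit of activin A, fell by 0.55 on the log2 scale (adjusted p = 0.00191). Of the genes named for latent TGF-β binding proteins, *Ltbp1* fell to 0.298 of its day 8 level (−1.75 ± 0.11, adjusted p = 1.49e-11), with RQs of 427 to 1009 at day 8 and 175 to 260.5 later, without overlap. The log2 fold changes of *Ltbp2*, *Ltbp3* and *Ltbp4* were −0.34 ± 0.15, 0.11 ± 0.094 and −0.26 ± 0.24 and did not pass the test.

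Among the receptors, the activin type II receptor *Acvr2b* rose most (1.36 ± 0.11, adjusted p = 1.08e-09), followed by the TGF-β type I receptor *Tgfbr1* (1.19 ± 0.10, adjusted p = 2.37e-09). On the log2 scale, *Bmpr1a*, *Bmpr2* and *Acvrl1* rose by 0.45 ± 0.082, 0.30 ± 0.087 and 0.23 ± 0.056 (adjusted p = 7.66e-05, 0.00514 and 0.00168), and with total counts as the scale *Acvrl1* was at −0.075. For *Bmpr2* the log2 ratio was −0.027 in replicate 1 and 0.43 in replicates 2 to 4. *Bmpr1b* (−1.73 ± 0.39, adjusted p = 0.000544) and the coreceptor *Tgfbr3* (−0.38 ± 0.073, adjusted p = 0.000102) fell. *Acvr1*, *Acvr2a* and *Tgfbr2* did not pass the test, at log2 fold changes of 0.064 ± 0.051, −0.088 ± 0.10 and −0.13 ± 0.074. Of the SMADs, the BMP mediators *Smad1* (0.64 ± 0.07, adjusted p = 8.45e-08) and *Smad5* (0.44 ± 0.062, adjusted p = 2.95e-06) rose and the inhibitory *Smad7* (−0.27 ± 0.11, adjusted p = 0.0453) fell, a call that was lost without replicate 1 (−0.12, adjusted p = 0.191). *Smad2*, *Smad3*, *Smad4*, *Smad9* and *Smad6* had log2 fold changes between −0.064 and 0.15 and did not pass the test.

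Of the 4 antagonists, *Nog*, *Fst* and *Chrd* rose in both genotypes, and *Grem1* passed over both genotypes together. *Nog*, which encodes noggin, ranged from 3.83 to 8.15 over the 8 libraries of day 8 (median 4.88) and from 11.9 to 45.4 over the 16 libraries of days 14 and 21 (median 22.7), and its time groups did not overlap. It rose 4.45-fold (2.15 ± 0.17, adjusted p = 3.66e-10). On the log2 scale, *Fst* was higher by 1.22 ± 0.12, *Grem1* by 1.2 ± 0.33 and *Chrd* by 0.73 ± 0.10 (adjusted p = 1.24e-08, 0.00318 and 3.70e-06). *Grem1* had RQs of 5.23, 5.19, 3.87 and 3.79 for WT at day 8, 11.4, 2.81, 3.78 and 6.15 at day 14 and 27.2, 4.21, 3.23 and 13.5 at day 21. WT replicates 2 and 3 were lower at both later days than at day 8, and in WT alone *Grem1* did not pass (0.90 ± 0.46, adjusted p = 0.117), while in Het alone it did (1.51 ± 0.47, adjusted p = 0.0113). The difference between the time effects of the genotypes did not pass (0.61 ± 0.62, adjusted p = 1). Of the targets, *Id2* rose (0.37 ± 0.11, adjusted p = 0.0069), while *Id1* (−0.24 ± 0.11, adjusted p = 0.0711) and *Id3* (0.018 ± 0.083, adjusted p = 0.87) did not pass the test. In contrasts of WT alone, taken from the same fit of all 24 libraries, *Bmp5*, *Gdf6*, *Tgfb3*, *Smad7* and *Grem1* lost the call over time. In those of Het alone *Gdf6*, *Tgfb3*, *Inhba*, *Bmpr2*, *Smad7* and *Id2* lost it. With the replicate number as a block in the fit, *Id1* (−0.23, adjusted p = 0.00739) and *Ltbp4* (−0.22, adjusted p = 0.0061) were lower at the later days as well.

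**Figure D2:**
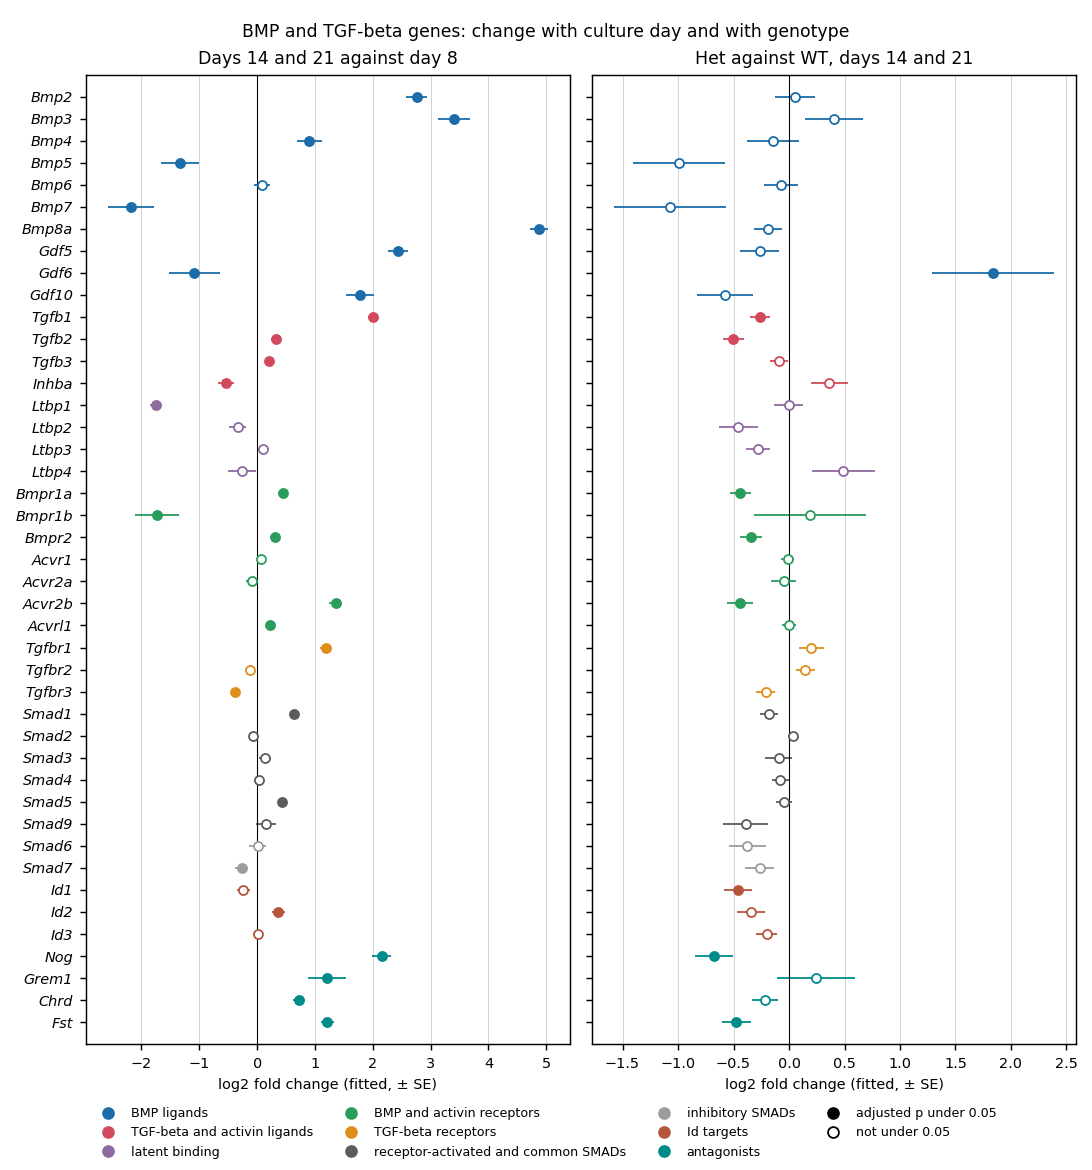
Fitted log2 fold changes ± SE of the 43 members for days 14 and 21 against day 8 (left) and for Het against WT at days 14 and 21 (right), coloured by role, where filled circles had an adjusted p under 0.05 (29 members on the left, 9 on the right) and the 2 axes differ in scale. The largest rise with time was that of *Bmp8a* (4.88), and 8 of the 9 filled circles on the right lie below 0.

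**Figure D3:**
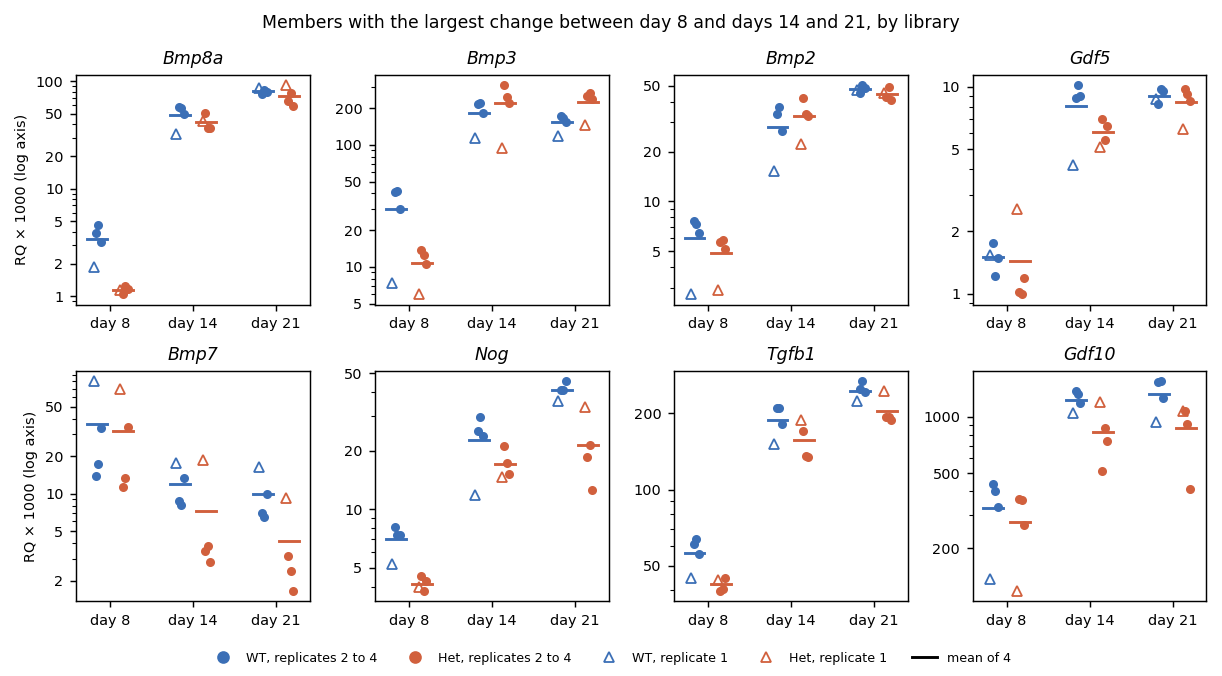
RQ × 1000 (log axis) by day in each library of WT (blue) and Het (orange) cultures for the 8 members with the largest change over time (triangles, replicate 1, circles, replicates 2 to 4, bars, means of 4). *Bmp7* is the member that went down, and replicate 1 was the lowest of its group for *Bmp3* and the highest for *Bmp7* in all 6 groups.

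Between days 14 and 21, change continued in fewer members. The day 21 level was higher for 8 of 43 members and lower for 0, beside 12.1% of all genes that were higher and 5.89% that were lower. At an unadjusted p under 0.05, 12 members differed (27.9%, beside 30.1% of all genes). *Acvr2b* went from 2.85 ± 0.743 at day 14 to 4.89 ± 1.05 at day 21 (SD, n = 8), with libraries of 3.01, 3.91, 3.59 and 3.48 for WT and 2.04, 2.46, 2.15 and 2.16 for Het at day 14 and of 4.44, 4.74, 6.93 and 4.81 for WT and 5.94, 3.78, 4.05 and 4.40 for Het at day 21. All 8 pairs rose, although the lowest Het library of day 21 was below the highest WT library of day 14 (0.80 ± 0.12, adjusted p = 0.000116). *Bmp8a* had RQs of 32.1, 57.7, 56.2 and 49.1 for WT and 43.1, 50.9, 36.6 and 36.4 for Het at day 14, and 86.6, 75.5, 82.7 and 79.5 for WT and 92.5, 64.9, 78.2 and 58.3 for Het at day 21. It rose in 8 of 8 pairs without overlap (0.77 ± 0.13, adjusted p = 0.000271).

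*Bmp2* had RQs of 15.3, 33.8, 37.4 and 26.7 for WT and 22.1, 41.9, 33.8 and 32.9 for Het at day 14, and 47.2, 45.2, 50.6 and 48.2 for WT and 44.9, 43.01, 49.0 and 41.3 for Het at day 21. Only the highest Het value of day 14 exceeded the lowest of day 21, and *Bmp2* rose (0.60 ± 0.18, adjusted p = 0.0237), with a log2 ratio of 1.30 in replicate 1 and 0.42 in replicates 2 to 4. Its call was lost without replicate 2, 3 or 4 and with DESeq2 size factors. *Nog* also passed over both genotypes (0.58 ± 0.17, adjusted p = 0.0206), with values given under the genotype comparison. It passed in WT alone (0.84 ± 0.24, adjusted p = 0.0314) and not in Het alone (0.32 ± 0.24, adjusted p = 0.537), where replicates 2 and 4 were lower at day 21. The difference between the genotypes in this change was not tested. *Nog* lost its call without replicate 2, 3 or 4 or without the library of Het day 21 replicate 1. On the log2 scale, *Ltbp2* rose by 0.54 ± 0.18, *Tgfbr1* by 0.52 ± 0.11, *Tgfb1* by 0.38 ± 0.089 and *Acvrl1* by 0.27 ± 0.065 (adjusted p = 0.0382, 0.00253, 0.004 and 0.00542). The block added *Fst* as higher (0.35, adjusted p = 0.0475) and *Ltbp4* as lower (−0.33, adjusted p = 0.0036) at day 21.

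The second question was how the heterozygous mutation changed these genes in matrix-producing cultures. Over days 14 and 21, Het cultures had lower levels of *Tgfb1* and *Tgfb2*, of the receptors *Bmpr1a*, *Bmpr2* and *Acvr2b*, of the BMP target *Id1* and of the antagonists *Nog* and *Fst*, and a higher level of *Gdf6*. That was 9 of 43 members at an adjusted p under 0.05 (edgeR, 20 at an unadjusted p under 0.05, or 46.5%, beside 30% of all genes), beside 15.2% of all 20434 genes. Of these, 1 was higher (7.15% of all genes were) and 8 were lower (8.01% of all genes). The median log2 fold change was −0.19 for the members and −0.049 for all genes tested. With the replicate number as a block, 15 members were lower and 2 were higher, against 14.3% and 10.2% of all genes, and all 9 were called again. With total counts as the scale, 3 members were higher and 7 lower, beside 3316 and 972 of all genes (1461 and 1637 on the housekeeping scale). The block added the lower members *Bmp5*, *Bmp7*, *Ltbp3*, *Smad6*, *Id2*, *Id3* and *Chrd* and the higher member *Ltbp4*.

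*Tgfb2* (chr1:186622792-186705989, minus strand) had RQs of 106, 116, 121 and 119 in WT replicates 1 to 4 and 90.8, 62.6, 79.6 and 71.4 in Het replicates 1 to 4 at day 14. At day 21, they were 114, 115, 117 and 117 for WT and 105, 90.6, 90.1 and 65.3 for Het. Every Het library was below every WT library over both days, with the lowest Het values in replicates 2 to 4. *Tgfb2* fell to 0.705 of WT (−0.50 ± 0.095, adjusted p = 0.0022), from 116 ± 4.53 to 82.0 ± 14.8 (SD, n = 8), and 8 of 8 pairs were lower. The log2 ratio was −0.17 in replicate 1 and −0.62 in replicates 2 to 4.

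*Tgfb1* (chr7:25687002-25705077, plus strand) had RQs of 151, 211, 209 and 182 for WT and 188, 171, 136 and 135 for Het at day 14. At day 21 it had 223, 249.7, 268 and 243 for WT and 245, 194, 194 and 188 for Het. In replicate 1 the Het library was above the WT library on both days, while Het replicates 2 to 4 were below their WT partners. *Tgfb1* passed the threshold narrowly (−0.26 ± 0.088, adjusted p = 0.0492), with a log2 ratio of 0.21 in replicate 1 and −0.42 in replicates 2 to 4. Leaving out any single WT or Het library of replicates 2 to 4 ended the call. It passed under 11 of 37 alternatives, where its adjusted p ranged from 2.60e-05 to 0.399. *Tgfb3* (−0.09 ± 0.083, adjusted p = 0.509) did not pass.

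*Gdf6* (chr4:9844372-9862345, plus strand), a ligand of skeletal patterning, was the member with a higher level in Het, and its counts were the lowest of the ligands, from 0 to 83 per library. Its RQs were 0.639, 0.204, 0.193 and 0.604 for WT and 0.227, 1.56, 1.09 and 1.17 for Het at day 14, and 0, 0.245, 0.264 and 0.315 for WT and 0.099, 0.656, 0.516 and 3.07 for Het at day 21. The 0 in WT replicate 1 allows up to 3 counts, or an RQ of 0.284, for counting error alone. Het replicates 2 to 4 were above every WT library of their day, but Het replicate 1 was within the WT range. The fitted log2 fold change was 1.84 ± 0.55, adjusted p = 0.0272, with a log2 ratio of mean RQ of −0.97 in replicate 1 and 2.14 in replicates 2 to 4. The call ended without Het day 21 replicate 4, the library at 3.07, without Het day 14 replicate 2, or without WT day 14 replicate 2 or 3.

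*Bmpr1a* (chr14:34410734-34503341, minus strand), the main type I BMP receptor here, had RQs of 261, 296, 317 and 293 for WT and 181, 179, 273 and 232 for Het at day 14. The day 21 values were 332, 322, 314 and 324 for WT and 293, 239, 240.4 and 179 for Het. All Het libraries were below all WT libraries at day 21, and at day 14 Het replicate 3 was above WT replicate 1. *Bmpr1a* fell to 0.738 of WT (−0.44 ± 0.094, adjusted p = 0.00493), with 8 of 8 pairs lower and log2 ratios of −0.33 in replicate 1 and −0.48 in replicates 2 to 4.

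Its type II partner *Bmpr2* (chr1:59763400-59879014, plus strand) had RQs of 118, 158, 164 and 151 for WT and 95.9, 99.9, 144 and 113 for Het at day 14, and 162, 163, 165 and 156 for WT and 151, 128, 131 and 116 for Het at day 21. As for *Bmpr1a*, the genotypes did not overlap at day 21 and overlapped at day 14 by Het replicate 3. *Bmpr2* fell to 0.79 of WT (−0.34 ± 0.10, adjusted p = 0.0252), with 8 of 8 pairs lower and log2 ratios of −0.18 in replicate 1 and −0.39 in replicates 2 to 4. The same 4 libraries as for *Gdf6* ended its call when left out. *Acvr2b* (chr9:119402118-119434995, plus strand), at the values given for days 14 and 21 above, did not overlap at day 14, and at day 21 Het replicate 1 (5.94) was above 3 of 4 WT libraries. It fell to 0.737 of WT (−0.44 ± 0.12, adjusted p = 0.0181), with 7 of 8 pairs lower, and its log2 ratio was 0.10 in replicate 1 and −0.53 in replicates 2 to 4. The other receptors did not pass the test, with log2 fold changes of *Acvr1* at −0.012 ± 0.059, *Acvr2a* at −0.046 ± 0.11, *Acvrl1* at 0.0022 ± 0.065, *Bmpr1b* at 0.19 ± 0.50, *Tgfbr1* at 0.20 ± 0.11, *Tgfbr2* at 0.15 ± 0.085 and *Tgfbr3* at −0.21 ± 0.085.

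*Id1* (chr2:152736251-152737410, plus strand) had RQs of 113, 100.3, 104 and 112 for WT and 93.7, 76.1, 68.0 and 73.9 for Het at day 14. At day 21 they were 112, 103, 103 and 109 for WT and 121, 60.4, 64.5 and 67.6 for Het. The genotypes did not overlap at day 14, while at day 21 Het replicate 1 was the highest of the 8 libraries and Het replicates 2 to 4 were the lowest. *Id1* fell to 0.728 of WT (−0.46 ± 0.13, adjusted p = 0.0208), with a log2 ratio of −0.064 in replicate 1 and −0.62 in replicates 2 to 4, and lost its call without Het day 21 replicate 4. On the log2 scale, *Id2* (−0.34 ± 0.13, adjusted p = 0.0712) and *Id3* (−0.20 ± 0.10, adjusted p = 0.16) did not pass without the block, and with it they did (−0.34, adjusted p = 0.0145 for *Id2* and −0.20, adjusted p = 0.0301 for *Id3*).

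*Nog* (chr11:89300638-89302332, minus strand) had RQs of 11.9, 25.2, 29.7 and 23.9 for WT and 14.7, 21.2, 17.3 and 15.2 for Het at day 14, and of 35.9, 41.1, 40.8 and 45.4 for WT and 33.4, 18.5, 21.4 and 12.6 for Het at day 21. WT replicate 1 was the lowest library of day 14, and the other WT libraries were above every Het library of the same day. *Nog* fell to 0.627 of WT (−0.67 ± 0.17, adjusted p = 0.012), the largest fall among the 8 lower members, with a log2 ratio of 0.0088 in replicate 1 and −0.96 in replicates 2 to 4. *Fst* (chr13:114452290-114458951, minus strand) had RQs of 107, 144, 149 and 134 for WT and 85.3, 72.9, 122 and 96.5 for Het at day 14, and of 167, 179.9, 165 and 163 for WT and 158, 125, 124 and 87.5 for Het at day 21. Its genotypes did not overlap at day 21, and it fell to 0.72 of WT (−0.47 ± 0.13, adjusted p = 0.0171) with 8 of 8 pairs lower, at log2 ratios of −0.17 in replicate 1 and −0.57 in replicates 2 to 4. On the log2 scale, *Chrd* (−0.22 ± 0.12, adjusted p = 0.213) and *Grem1* (0.24 ± 0.35, adjusted p = 0.712) did not pass.

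**Figure D4:**
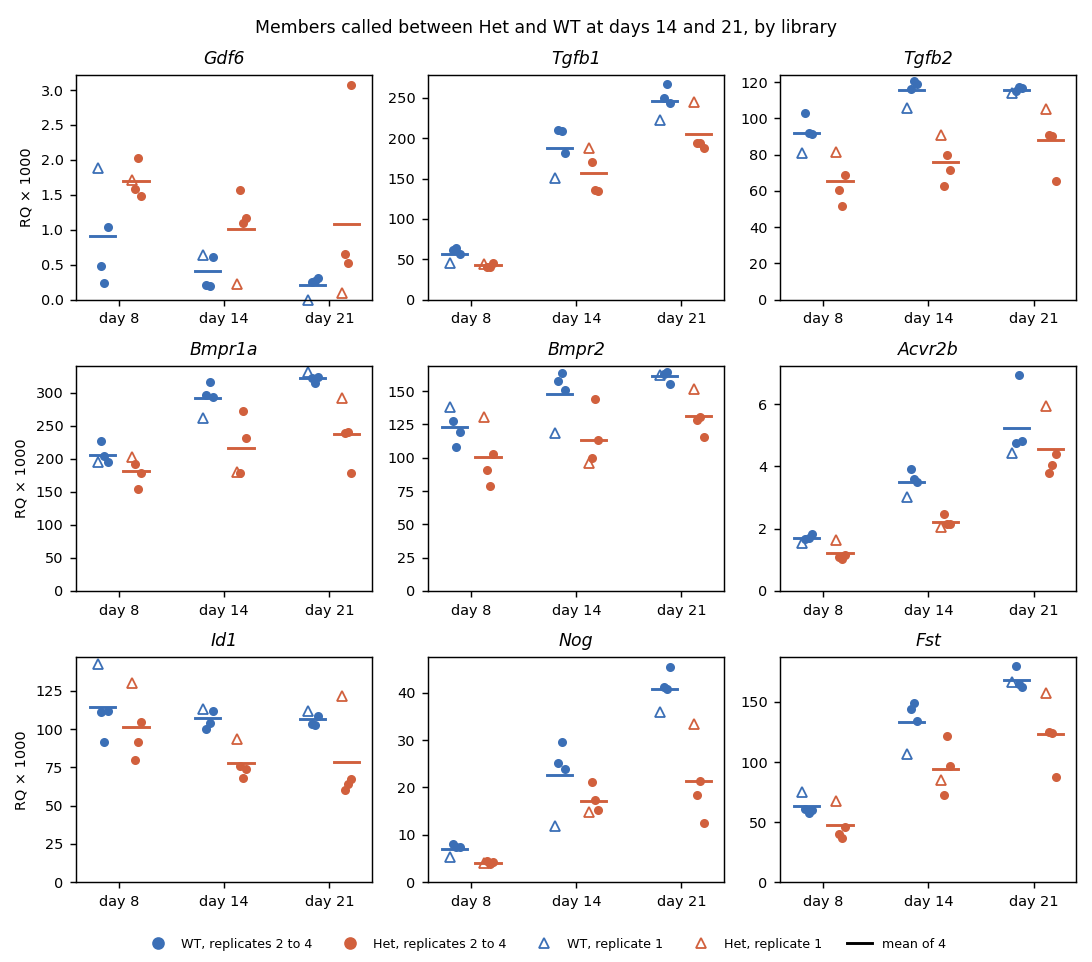
RQ × 1000 by day in each library of WT (blue) and Het (orange) cultures for the 9 members called between genotypes at days 14 and 21 (triangles, replicate 1, circles, replicates 2 to 4, bars, means of 4). Het circles lie below WT circles at day 21 in all panels except *Gdf6*, and the Het triangle of day 21 lies above the Het circles in those panels.

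Of the remaining ligands, on the log2 scale, *Bmp7* (−1.07 ± 0.50, adjusted p = 0.157) and *Bmp5* (−0.99 ± 0.41, adjusted p = 0.109) had the largest values that did not pass. With the block they were lower in Het (−1.27, adjusted p = 0.00112 for *Bmp7* and −1.12, adjusted p = 3.28e-05 for *Bmp5*). *Bmp7* had RQs of 17.7, 8.67, 8.10 and 13.3 for WT and 18.7, 3.43, 3.79 and 2.84 for Het at day 14, and of 16.4, 7.02, 6.51 and 9.93 for WT and 9.31, 3.16, 2.38 and 1.66 for Het at day 21. Het replicates 2 to 4 were below every WT library of their day, and Het replicate 1 was the highest library of day 14. *Gdf10* was at a log2 fold change of −0.58 ± 0.25 (adjusted p = 0.125), with RQs of 1041, 1359, 1320.5 and 1176 for WT and 1201, 513, 866 and 742 for Het at day 14, where Het replicates 2 to 4 were the lowest. Its day 21 RQs were 941, 1523, 1537 and 1258 for WT and 1072, 1072, 916 and 414 for Het. The log2 fold changes of *Gdf5*, *Bmp2*, *Bmp3*, *Bmp4*, *Bmp6* and *Bmp8a* were between −0.26 and 0.41 and did not pass, and neither did *Inhba* at 0.36 ± 0.16. Of the latent binding proteins, on the same scale, *Ltbp2* (−0.46 ± 0.18), *Ltbp3* (−0.28 ± 0.11), *Ltbp4* (0.49 ± 0.29) and *Ltbp1* (−0.00051 ± 0.13) did not pass, and with the block *Ltbp3* (−0.30, adjusted p = 0.0196) was lower and *Ltbp4* (0.47, adjusted p = 0.000456) was higher.

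None of the 8 SMADs passed the test at days 14 and 21 by edgeR, while *Smad6*, *Smad1* and *Smad7* were at log2 fold changes of −0.37 ± 0.17, −0.18 ± 0.079 and −0.26 ± 0.13, with unadjusted p-values of 0.0364, 0.0309 and 0.058. With the block *Smad6* (−0.41, adjusted p = 0.0405) was lower, as was *Chrd* (−0.22, adjusted p = 0.0495). *Smad9* was at a log2 fold change of −0.39 ± 0.20, and *Smad2*, *Smad3*, *Smad4* and *Smad5* were between −0.093 and 0.033.

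Among OB markers, as among the members, more were lower, with *Bglap* (−1.54 ± 0.36, adjusted p = 0.00799) and *Runx2* (−0.39 ± 0.13, adjusted p = 0.041) lower of 6 and a range of the summed level of 100776 to 186068 in WT and 95579 to 149456 in Het. None of the 4 osteocyte markers passed. *Mepe* and *Phex* were at adjusted p = 0.576 and 0.466, and *Dmp1* and *Sost* at adjusted p = 0.147 and 0.0625. The cartilage factor *Sox9* was the 1 of 4 cartilage markers that was called lower (−0.70 ± 0.22, adjusted p = 0.0372). In replicates 2 to 4, however, the log2 ratios of *Col10a1*, *Col2a1*, *Acan* and *Sox9* were −2.75, −2.01, −1.89 and −0.997. The genotypes did not overlap there for any of these genes. In replicate 1 the log2 ratios of these genes were 0.59, 0.081, 0.009 and −0.071. Of the 5 macrophage and osteoclast markers, *Cd68*, *Adgre1* and *Csf1r* were higher in Het, by log2 fold changes of 0.92 ± 0.22, 0.97 ± 0.22 and 1.05 ± 0.20. Their log2 ratios were 0.095, 0.089 and 0.28 in replicate 1 and 1.10, 1.08 and 1.18 in replicates 2 to 4. *Ctsk* and *Acp5* were both at −0.12 ± 0.11 and did not pass. The summed level of all 5 was 1178 to 2158 in WT and 1252 to 2956 in Het. The fibroblast marker Dpt (1.15 ± 0.38, adjusted p = 0.0432) and the smooth muscle marker Myh11 (0.88 ± 0.18, adjusted p = 0.00398) were higher in Het as well. The part of these shifts in the members' changes was not tested.

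Replicate 1 and replicates 2 to 4 differed in the genotype comparison. Among the 9 called members, the log2 ratio of Het to WT had the same sign in replicate 1 and in replicates 2 to 4 for 5 and the opposite sign for 4 (*Gdf6*, *Tgfb1*, *Acvr2b* and *Nog*), with medians of −0.17 in replicate 1 and −0.53 in replicates 2 to 4. In the 12 libraries of replicates 2 to 4 of days 14 and 21, fitted with those of day 8, 30 of 43 members passed (7 higher, 23 lower), when 41.9% of all genes did. The 9 were among them. The 7 higher were *Gdf6*, *Bmp3*, *Inhba*, *Ltbp4*, *Tgfbr1*, *Tgfbr2* and *Grem1*, and the 23 lower included *Smad1*, *Smad3*, *Smad9*, *Smad6* and *Smad7*, all 3 Id genes, and *Gdf10* (−0.85, adjusted p = 0.00101). Without replicate 2 or replicate 4, 0 of 43 members passed, beside 239 of 20599 and 86 of 20554 genes. Without replicate 3, 2 members did, beside 366 of 20558 genes (edgeR).

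**Figure D5:**
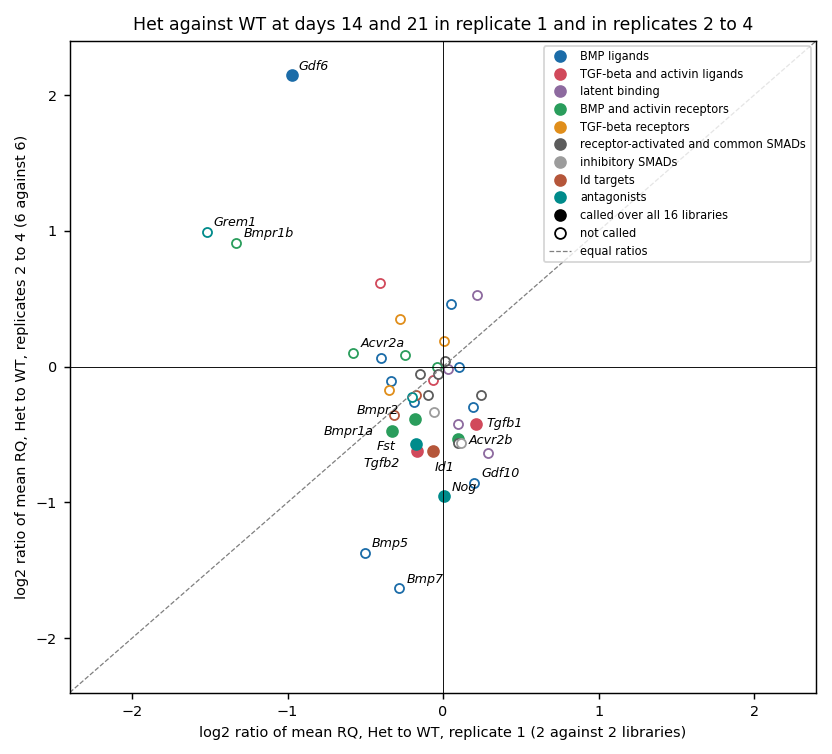
Log2 ratio of mean RQ, Het to WT at days 14 and 21, in replicate 1 (2 against 2 libraries, horizontal axis) and in replicates 2 to 4 (6 against 6, vertical axis) for the 43 members, with the 9 called members as filled circles and equal ratios on the dashed line. *Gdf6* lies at −0.97 and 2.14, *Grem1* at −1.52 and 0.99, and *Bmpr1a*, below 0 in both, at −0.33 and −0.48.

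At day 8, near the time of confluence, 1 of 43 members differed between genotypes, beside 0.631% of all genes, and 9 did at an unadjusted p under 0.05 (20.9%, beside 10.1% of all genes). This was *Bmp8a*, with RQs of 1.89, 3.87, 4.56 and 3.17 for WT and 1.14, 1.05, 1.25 and 1.16 for Het. The groups did not overlap, the lowest WT value being that of replicate 1 (log2 ratio −0.73 in replicate 1 and −1.75 in the others). These values rest on low counts, 22, 106, 113 and 92 for WT and 16, 31, 34 and 36 for Het. The ratio in replicate 1 is thus one of 16 against 22 counts. *Bmp8a* fell to 0.331 of WT (−1.59 ± 0.25, adjusted p = 0.00498). The call was lost when only the libraries of day 8 were fitted and without replicate 2, 3 or 4. At days 14 and 21 its log2 fold change was −0.19 ± 0.13 (adjusted p = 0.339). *Bmp8b* was at a log2 fold change of −0.057 ± 0.12 at day 8 (adjusted p = 0.954). The median log2 fold change at day 8 was −0.18 for the members and −0.071 for all genes.

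*Bmp3* had the next largest value at day 8 (−1.48 ± 0.40, adjusted p = 0.088), from the libraries listed above, in which Het replicates 2 to 4 (10.5 to 13.7) were below WT replicates 2 to 4 (29.9 to 41.4) and replicate 1 was lower in both genotypes. With the replicate block it passed (−1.42, adjusted p = 0.00247). In replicates 2 to 4 alone, 15 of 43 members differed at day 8 (14 lower, 1 higher), beside 17.3% of all genes. They included *Tgfb1* (−0.53, adjusted p = 0.000654), *Tgfb2* (−0.66, adjusted p = 0.00103), *Nog* (−0.86, adjusted p = 0.00359) and, as the higher one, *Ltbp1* (0.52, adjusted p = 0.0072).

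The difference between the Het effect at days 14 and 21 and that at day 8 was tested as well. It passed for 1 of 43 members, *Bmp8a* (1.41 ± 0.28, adjusted p = 0.0424), and for 0.171% of all genes, while 2 members had an unadjusted p under 0.05 (4.65%, beside 5.57% of all genes). The call of *Bmp8a* held under 14 of 36 alternatives, with an adjusted p from 0.000459 to 1. *Bmp3* was the other, at 1.89 ± 0.48, adjusted p = 0.19, and with the block it passed (1.77, adjusted p = 0.00139). Het replicates 2 to 4, below WT in *Bmp3* at day 8, had RQs at days 14 and 21 of 309, 248, 221, 249, 266 and 237 against 217, 219.7, 184, 171, 164 and 155 in WT. The log2 differences for *Tgfb2* (−0.012 ± 0.16), *Nog* (0.093 ± 0.30) and *Id1* (−0.29 ± 0.22) did not pass. Without replicate 1, *Id1* (−0.44, adjusted p = 0.0305) and *Ltbp1* (−0.53, adjusted p = 0.042) passed, with a Het effect that was lower at days 14 and 21 than at day 8.

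A wider list of 78 genes of the pathway held 68 that could be tested. At days 14 and 21, 19 of the 68 differed between genotypes (7 higher and 12 lower), with a median of −0.15. That is 27.9% of them, beside 15.2% of all genes. The largest changes were higher *Gdf7* (1.73 ± 0.51, adjusted p = 0.0246), a BMP ligand with a mean of 12.1 counts, lower *Chrdl2* (−1.57 ± 0.52, adjusted p = 0.0424) and *Sostdc1* (−1.48 ± 0.45, adjusted p = 0.0298), a pair of BMP antagonists with means of 9.71 and 15.8 counts, and higher *Gdf15* (1.32 ± 0.21, adjusted p = 0.000618), a distant family member induced by cell stress. *Tll1* (1.11 ± 0.34, adjusted p = 0.0315), a protease that cleaves chordin, was also higher, and its log2 ratio was −1.08 in replicate 1 and 1.49 in replicates 2 to 4. Of the 14 antagonists in this list, 4 were lower and 0 higher (edgeR), beside 8.01% and 7.15% of all genes. Over time, 46 of the 68 differed (25 higher and 21 lower), that is 67.6%, beside 58.3% of all genes. The largest rises on the log2 scale were those of the osteocyte antagonist *Sost* (10.59 ± 0.61, a fitted value that rests on few or no counts at day 8 and is no bound), the BMP target *Dlx3* (4.22 ± 0.22), *Hey1* (2.44 ± 0.14), the BMP-binding *Bmper* (2.32 ± 0.11) and the decoy receptor *Bambi* (2.28 ± 0.11).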

How the data were processed

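Bulk RNASeq of polyadenylated RNA was analysed for primary OBs from parietal bones, with 4 libraries per genotype (WT, Het) and day (8, 14, 21). Raw gene counts were deposited by the authors, with 1 file per library. The submitters' processing notes name cutadapt 2.5, STAR 2.73a, featureCounts 1.6.4 and build mm10; the strand setting and how multi-mapping reads were counted are not given in the sources used here. Counts had no molecular identifiers and can hold PCR duplicates.

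Counts were tested with edgeR 4.0.16 in R 4.3.3 (glmQLFit and glmQLFTest, filterByExpr with a minimum count of 10, Benjamini-Hochberg adjustment over 20434 genes, called at 0.05). The library scale was the geometric mean of 4 housekeeping genes, after the paper. A single fit held all 24 libraries with 1 mean per genotype and day, from which 5 contrasts were taken. The scripts were tested on simulated data. Gene positions came from GENCODE mouse release M21 (GRCm38), in which 15 of 43 members share exon bases with another gene. Same-numbered WT and Het libraries of a day deviated together from their group means (12 correlations across genes of 0.194 to 0.789, over 0.1 in each, where 36 pairs with unlike numbers had a median of −0.070), mostly through replicate 1 (−0.015 to 0.153 among replicates 2 to 4), so blocked values are given where they change a call. Per-library values were given for members called between genotypes, the 8 with the largest change over time and the 4 with the largest change between days 14 and 21. The members, lists and rules were chosen with earlier results of these data known. Alternatives were other scales (TMM, DESeq2 1.42.0 size factors, total counts), DESeq2's Wald test, other filters, single days or genotypes, the block, replicate 1 as a factor, and libraries left out.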

Additional observations from a re-analysis of the deposited data

Results flagged for a closer look

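Single libraries stood far from the other 3 of their group, by Dixon's ratio of the gap to the range at its 95% critical value, in 5 of 90 groups of the 15 members with per-library values, where chance alone gives about 1 in 20. Of these 5, 4 were replicate 1 of a Het group. *Bmp7* in Het day 14 replicate 1 had a ratio of 0.94, with an RQ of 18.7 against 2.84 to 3.79 in the other libraries. *Tgfb1* and *Id1* in Het day 21 replicate 1 had ratios of 0.903 and 0.882, with RQs of 244.9 and 121 against 188 to 194 and 60.4 to 67.6. *Gdf5* in Het day 8 replicate 1 had a ratio of 0.871 (2.56 against 0.993 to 1.19). *Acvr2b* in WT day 21 replicate 3 had a ratio of 0.854 (6.93 against 4.44 to 4.81). Over all 43 members, 15 of 258 groups had such a library.

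The Het effect on *Bmp8a* differed between the days, by 1.41 on the log2 scale (edgeR, adjusted p = 0.0424), from −1.59 at day 8 to −0.19 at days 14 and 21. Its RQs in Het cultures of day 8 were between 1.05 and 1.25, from 16 to 36 counts per library. The reads it may share with *Bmp8b* were not separated here.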

How the results depend on the processing

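The calls between genotypes rest on few wells, and their number changes with replicate 1 kept or left out. Low counts limit *Gdf6* and *Bmpr1b*, and also *Bmp8a* at day 8. Of 8198 alternatives of single-member results, 199 lost the call, 149 gained it and 293 changed sign, of which 288 were values called in neither setting. The other 7557 kept direction and side of the threshold. Of the changes of sign, 5 concerned a call. With total counts as the scale, days 14 and 21 against day 8 turned to −0.10 for *Tgfb3*, −0.24 for *Acvr1*, −0.075 for *Acvrl1*, −0.27 for *Smad4* and −0.28 for *Id3*, where the median of all genes moved by more than 0.1 to −0.14 (0.032 with TMM). The cause was not tested.

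Members called between genotypes at days 14 and 21 (9) came to 2 at day 14 alone (704 of all 20434 genes) and 0 at day 21 alone (186). They came to 17 with the replicate block (5005) and 17 with replicate 1 as a factor (5365). Without a replicate number or library, 0 to 30 members were called. The extremes without a single library were 14 without Het day 14 replicate 1 (4217 of all genes) and 5 without Het day 21 replicate 4 (1889). There were 6 left without WT day 14 replicate 2 or 3 or Het day 14 replicate 2 (2180, 2167 and 2461 of all genes). At day 8 (1), they were 3 with DESeq2's Wald test, 2 with the replicate block, 3 with replicate 1 as a factor, 0 with only the libraries of that day, and 0 to 15 without a replicate number or library (2 without Het day 14 replicate 1, 4 without WT day 8 replicate 1 and 5 without Het day 8 replicate 1). For the difference between effects (1), they were 0 with TMM or DESeq2 size factors, 2 with the Wald test, the replicate block or replicate 1 as a factor, and 0 to 4 without a replicate number or library (2 without WT day 8 replicate 1 or Het day 14 replicate 1, and 0 without WT day 8 replicate 2, 3 or 4, WT day 14 replicate 3 or 4, any WT library of day 21, any Het library of day 8, Het day 14 replicate 2 or 3, or Het day 21 replicate 2 or 3). Over all genes, calls of this difference went from 35 to 27 with TMM or DESeq2 size factors, 91 with the Wald test and 67 with the block. With replicate 1 as a factor they were 73, and without a replicate number 0 to 928. Between days 14 and 21 (8), members called were 3 in WT only (1726 of all genes) and 3 in Het only (968). They were 2 without replicate 4 (1325 of all genes) to 11 without replicate 1 (6142). The replicate block ended no member's call in the 5 comparisons, and it added 2 members over time and 2 between days 14 and 21. Over all genes, it moved the calls from 11911 to 13113 over time and from 3680 to 4933 between days 14 and 21. Over all genes, calls between genotypes at days 14 and 21 went from 3098 to 8236 without replicate 1 and to 86 without replicate 4. At day 8 they went from 129 to 442 with the Wald test, 315 with the block, 391 with replicate 1 as a factor and 3405 without replicate 1. They went to 0 of all genes with only the libraries of day 8 or without replicate 2, 3 or 4. Without Het day 14 replicate 1, WT day 8 replicate 1 or Het day 8 replicate 1 they were 242, 268 and 970. The study's RQ limits (ratio above 1.2 or below 0.8), with a two-sided exact permutation p under 0.05 in place of its own tests, called 12 members at days 14 and 21. The share of all genes under these limits is not given here, so this number has no background beside it. Days 14 and 21 against day 8 stayed between 23 members in Het only (9277 of all genes) and 33 without replicate 1 (13775 of all genes). The order of levels per length did not change with total counts as the scale.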
